A study of Mus musculus with 16 samples.

Results

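The granule genes that immature neutrophils transcribe were followed in liver metastases of mice, as a set of 9 among the 21959 genes counted. They were Mpo, Elane, Prtn3 and Ctsg, whose proteins fill primary granules, Ngp, Ltf and Camp, whose proteins fill secondary granules, and Ms4a3 and Fcnb, which are made by immature granulocytes. The 9 genes were chosen by name with earlier results of these counts in view. Which values drew attention to them was not recorded, so every difference in them between treatment groups is given below as a description. Counts of members called by a fit over all genes are printed beside the share of all genes called, and nothing is read from them.

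Tumor RNA came from 16 male C57BL/6 mice, 6 weeks old when MC38 cells, a mouse colon carcinoma line, were injected into the inferior hemispleen to seed the liver. Control mice were given PBS. The SB525334 group had this inhibitor of the type I TGF-β receptor (ALK5) by gavage at 20 mg/kg every day, the KN046 group had this antibody against PD-L1 and CTLA-4 at 10 mg/kg intraperitoneally 2 times a week, and the combination group had both agents. Each group held 4 mice, and all 16 carried the tumor cells and a wild-type immune system. The libraries were of bulk tissue, so fewer granulocytes and less RNA per granulocyte cannot be told apart, and the cells that held the transcripts were not identified.

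Neutrophils build their granules in sequence while they mature in the bone marrow, and in mice also in the spleen. Promyelocytes transcribe the primary granule genes, later myelocytes and metamyelocytes transcribe the secondary granule genes, and circulating neutrophils keep the proteins after most of this transcription has ended. Transcripts of these genes in a tissue are therefore widely used as a sign of immature granulocytes, while S100a8, S100a9, Csf3r and Cxcr2 stay active in mature neutrophils. The transcription factors PU.1 and C/EBPα act early in this program, and C/EBPε acts on the secondary granule genes.

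Depth ran from 18368994 to 23877131 counts in a mouse. Levels are given as counts and as CPM, the count per 1000000 counts of the library after TMM scaling. The limit that a count of 0 allows, 3 counts, was worth 0.126 to 0.163 CPM. Control mice 1 and 2, and control mice 3 and 4, resembled each other most, with a median chi-square per gene of 1.26 and 0.956, against 2.73 or more for every other pair within a group. They still differed by more than sampling noise, and were kept as 4 mice. Combination mouse 4 stood apart from the other 3 combination mice in all 9 genes, so values are given with and without it. The labelled tissue was checked with 12 hepatocyte genes, whose sum was 14018 to 15642 CPM in the control group, 373 to 1819 after SB525334, 8840 to 18201 after KN046 and 56.9 to 68.2 after the combination. The combination samples thus held little hepatocyte RNA, although all 16 are labelled as liver metastases. The 3 genes of splenic mesenchyme, Tlx1, Nkx2-5 and Coch, summed to 2.81 to 10.2 CPM in the 4 combination mice and to at most 0.340 CPM in the other 12, with Nkx2-5 at 0 in control and KN046. The spleen was the site of injection and can hold maturing granulocytes. Whether the combination samples held spleen tissue was not tested, and in every comparison that uses them, the interaction term included, the tissue sampled and the treatment cannot be told apart. The SB525334 samples also held less hepatocyte RNA than every control sample. In comparisons that use them, this difference in tissue and the treatment cannot be told apart either.

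The members lie on 6 chromosomes, and several are neighbors (build GRCm39, GENCODE M39). Prtn3 (chr10:79710310-79719008) and Elane (chr10:79722081-79724051) are both on the plus strand with 3072 bases between them. Camp (chr9:109676442-109678685, minus strand), Ngp (chr9:110248815-110252086, plus) and Ltf (chr9:110848339-110871835, plus) lie within 1.195 Mb of chromosome 9. Mpo is at chr11:87684407-87695239 (plus), Ctsg at chr14:56337338-56340031 (minus), Ms4a3 at chr19:11606860-11618215 (minus) and Fcnb at chr2:27966389-27974897 (minus). Reads shared with gene copies could have moved counts, but 8 of the members shared no 31-base stretch with another protein-coding transcript of the listed genes, and Mpo shared 15 of 3119.

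The sequence just before the start site was compared between the primary and the secondary granule genes. RefSeq promoters (table of build GRCm38.p6, each of the 9 windows found exactly once in GRCm39) were searched over the 250 bases before the start on both strands. The PU.1 motif letters GAGGAA stood in 4 of the 4 primary granule genes and in 1 of the 3 secondary ones, Ltf, against 23.1% of 27025 promoters of the same length. The C/EBP motif letters TTNNGNAA stood in 0 of 4 primary genes and in 2 of 3 secondary genes, Ngp and Ltf, and also in Ms4a3 and Fcnb, against 36.9% of promoters. The RUNX letters TGTGGT were in Ctsg alone among the members, with 14.2% of promoters holding them. The MYB letters AACNG were in 8 of the 9 members and 74.1% of promoters, all but Ms4a3. These motifs can overlap each other. A match of letters describes the sequence and does not show that a factor binds there.

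Stretches of 7 members are shown so that both patterns can be compared. Each ends before the first annotated exon of the coding transcript it precedes and is printed 5′ to 3′ on the strand of the gene, with PU.1 and C/EBP letters in capitals (PU.1 letters in Mpo, Elane and Prtn3, C/EBP letters in Ngp, Ltf, Ms4a3 and Fcnb, on either strand). They lie at chr11:87684360-87684406, chr10:79721961-79722080, chr10:79715328-79715447, chr9:110248695-110248814 and chr9:110848219-110848338 on the plus strand, and at chr19:11618216-11618335 and chr2:27974898-27975017 on the minus strand, in GRCm39. The RefSeq start of Prtn3 lies 5191 bases inside the GENCODE gene, and its stretch is inside an intron of the longest transcript, just before the first exon of shorter ones.
Mpo: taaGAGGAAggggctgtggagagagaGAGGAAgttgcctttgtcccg
Elane: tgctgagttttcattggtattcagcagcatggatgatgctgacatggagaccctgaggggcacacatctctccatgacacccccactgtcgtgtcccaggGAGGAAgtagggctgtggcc
Prtn3: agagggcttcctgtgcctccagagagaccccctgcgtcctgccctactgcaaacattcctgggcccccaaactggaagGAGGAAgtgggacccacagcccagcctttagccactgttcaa
Ngp: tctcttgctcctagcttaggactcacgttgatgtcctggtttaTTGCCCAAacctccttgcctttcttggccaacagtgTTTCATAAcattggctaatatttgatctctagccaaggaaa
Ltf: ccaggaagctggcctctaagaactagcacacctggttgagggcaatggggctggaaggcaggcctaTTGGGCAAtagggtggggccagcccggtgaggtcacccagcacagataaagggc
Ms4a3: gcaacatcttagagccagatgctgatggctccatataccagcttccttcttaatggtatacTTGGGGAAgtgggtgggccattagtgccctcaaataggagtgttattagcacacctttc
Fcnb: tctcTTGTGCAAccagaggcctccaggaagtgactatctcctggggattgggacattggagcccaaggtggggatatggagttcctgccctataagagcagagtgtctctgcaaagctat
In Elane and Prtn3, the neighbors on chromosome 10, the PU.1 letters stood at bases -85 to -80 and -95 to -90 from the RefSeq start. Mpo held them at -247 to -242 and again at -224 to -219, and Ctsg at -216 to -211. The C/EBP letters of Ngp lay at -138, -102 and -11, and those of Ltf at -217 and -75. Camp held none of the PU.1, C/EBP and RUNX letters in this window. Of the 250 bases searched, 161 in Camp and 203 in Mpo lie in annotated exon. In the other members it was 0 (Ctsg and Ms4a3) to 65 (Elane), so the windows are not alike.

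The primary granule genes were high in all 4 control mice and close to 0 in nearly every treated mouse but combination mouse 4. Mpo encodes myeloperoxidase, the heme enzyme of the primary granule. Its counts were 246, 219, 184 and 247 in control mice 1 to 4, then 12, 2, 3 and 1 after SB525334, 5, 10, 3 and 2 after KN046, and 3, 10, 8 and 113 after the combination. The control level of 10.8 ± 1.504 CPM (SD, n = 4) stood against 0.199 ± 0.232 after SB525334, 0.256 ± 0.167 after KN046 and 1.62 ± 2.48 after the combination. The combination mean came mainly from mouse 4, at 5.33 CPM, while mice 1 to 3 lay between 0.154 and 0.552.

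Elane encodes neutrophil elastase, the serine protease that is mutated in inherited neutropenia. Counts of 211, 187, 174 and 150 in the control mice stood against 1, 0, 1 and 1 after SB525334, 4, 7, 1 and 4 after KN046, and 7, 2, 0 and 94 after the combination. This was the lowest of the primary genes after SB525334, with 3 counts in the whole group. The pooled control level was 272 times the SB525334 level (95% counting interval 92.8 to 1323). In CPM the means were 8.69 ± 0.594 in control, 0.0328 ± 0.0219 after SB525334, 0.204 ± 0.116 after KN046 and 1.23 ± 2.14 after the combination.

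Prtn3 encodes proteinase 3, another serine protease of the same granule. It was counted 308, 305, 286 and 331 times in control mice, 7, 8, 24 and 3 times after SB525334, 2, 19, 31 and 37 times after KN046, and 4, 9, 5 and 149 times after the combination. Of the 9 genes it kept the largest share of its control level after either single agent, 3.01% after SB525334 and 7.85% after KN046. Its means were 14.9 ± 1.65 CPM in control, 0.449 ± 0.399 after SB525334, 1.17 ± 0.831 after KN046 and 2.00 ± 3.35 after the combination.

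Ctsg encodes cathepsin G, a chymotrypsin-like protease. The counts were 101, 84, 83 and 67 in control, 2, 0, 4 and 0 after SB525334, 3, 2, 1 and 5 after KN046, and 2, 3, 4 and 48 after the combination. No treated mouse reached the lowest control mouse. The control mean of 4.03 ± 0.394 CPM compared with 0.0656 ± 0.0828 after SB525334, 0.143 ± 0.0887 after KN046 and 0.687 ± 1.05 after the combination.

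The secondary granule genes showed the same low values after each single agent, but combination mouse 4 was at 85.6 to 173% of the control mean. Ngp encodes neutrophilic granule protein, a cystatin-like protein, and was the most abundant member. It had 1331, 1331, 1041 and 1069 counts in control mice, 4, 7, 5 and 3 after SB525334, 14, 11, 53 and 23 after KN046, and 45, 45, 1 and 1658 after the combination. The last value, 78.2 CPM, was above the highest control mouse at 63.0 CPM. Group means were 57.5 ± 4.30 CPM in control, 0.201 ± 0.0627 after SB525334, 1.36 ± 1.103 after KN046 and 20.7 ± 38.3 after the combination.

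Ltf encodes lactoferrin, the iron-binding protein that defines secondary granules. Control mice had 768, 724, 585 and 596 counts, SB525334 mice 2, 3, 5 and 2, KN046 mice 6, 12, 14 and 3, and combination mice 37, 21, 2 and 584. Combination mouse 4 lay just under the lowest control mouse, at 27.5 against 29.7 CPM. The means were 32.2 ± 2.14 CPM in control, 0.128 ± 0.0601 after SB525334, 0.460 ± 0.278 after KN046 and 7.67 ± 13.3 after the combination.

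Camp encodes the precursor of the cathelicidin antimicrobial peptide. Counts were 236, 236, 279 and 243 in control, 2, 7, 3 and 1 after SB525334, 2, 6, 3 and 3 after KN046, and 6, 22, 1 and 444 after the combination. Mouse 4 reached 20.9 CPM, above the control range of 10.3 to 14.2. The means were 12.1 ± 1.69 CPM in control, 0.135 ± 0.102 after SB525334, 0.180 ± 0.0787 after KN046 and 5.63 ± 10.2 after the combination.

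Ms4a3 and Fcnb were the least abundant members and followed the same mice. Ms4a3 encodes a membrane protein of granulocyte and monocyte progenitors. Its counts were 38, 56, 27 and 23 in control, 0 in each of the 4 SB525334 mice, 3, 0, 4 and 0 after KN046, and 2, 3, 0 and 28 after the combination. Against the limit of 3 counts over the whole SB525334 group, its control level was at least 54.3-fold higher. The means were 1.72 ± 0.648 CPM in control, 0.0959 ± 0.114 after KN046 and 0.397 ± 0.619 after the combination.

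Fcnb encodes ficolin B, a lectin that starts the complement cascade. Control mice had 37, 31, 21 and 27 counts, SB525334 mice 0, 0, 1 and 0, KN046 mice 2, 0, 0 and 0, and combination mice 2, 1, 0 and 43. Pooled control levels were 131 times those after SB525334 (95% counting interval 23.1 to 5226) and 53.5 times those after KN046 (14.5 to 447), ratios that rest on 1 and 2 counts. The control mean was 1.39 ± 0.234 CPM, and combination mouse 4 reached 2.03 CPM.

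**Figure D1:**
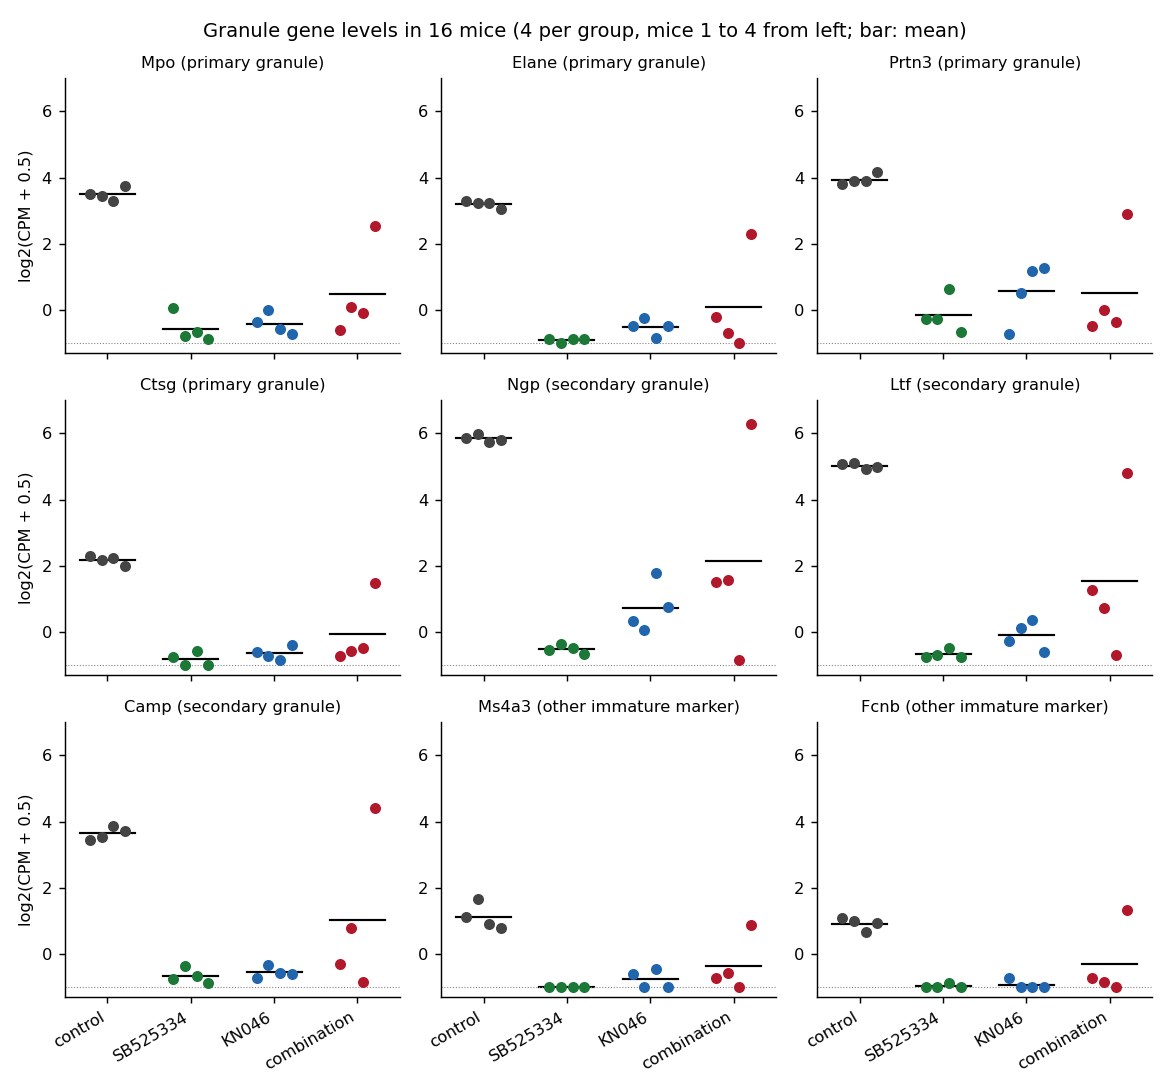
Levels of the 9 granule genes as log2(CPM + 0.5), 1 panel a gene, with 1 point per mouse, 4 mice per group and a bar at the group mean; the dotted line marks 0 counts. All SB525334 and KN046 mice lay under all control mice, and combination mouse 4 lay above the other combination mice in every panel.

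Read over the 9 genes, SB525334 left 0 to 3.01% of the control mean (median 0.774%). KN046 left 1.43 to 7.85% (median 2.36%), and the combination 13.4 to 46.6% (median 23.1%). Without combination mouse 4, the combination fell to 1.80 to 5.20% of control (median 3.51%). That mouse alone held 47.0 to 56.2% of the control mean in the 4 primary genes, 85.6 to 173% in the 3 secondary genes, 76.7% in Ms4a3 and 146% in Fcnb. It was 7.97 to 31.5 times the highest of the other 3 combination mice. In all 9 genes the SB525334 and KN046 mice did not overlap with control, where 13.3% and 6.65% of the 13968 genes tested had all treated mice below all control mice. The combination mice did not overlap with control in 5 of 9 genes, against 12.1% of all genes, and in 9 of 9 without mouse 4.

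The fitted differences, from an edgeR quasi-likelihood fit over all 16 mice, are given as sizes on the log2 scale with their SE. All 3 comparisons with control share the same control mice. With SB525334 they ran from -5.04 (SE 0.95) for Prtn3 to -8.16 (SE 1.49) for Ms4a3, with Mpo at -5.76 (SE 0.89), Ctsg at -5.84 (SE 0.92), Camp at -6.39 (SE 1.24), Ltf at -7.91 (SE 1.21) and Ngp at -8.11 (SE 1.43). The values of Elane, Ms4a3 and Fcnb rest on 0 to 3 counts and depend on the prior count that edgeR adds. The median was -5.80 for the primary and -7.91 for the secondary genes, beside 0.00059 over all genes tested. At an adjusted p under 0.05, 9 of 9 members were called lower, where 9.22% of all genes were called lower and 0.394% higher. Since the members may have been picked from this contrast, nothing is read from that count.

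With KN046 the differences ran from -3.67 (SE 0.87) for Prtn3 to -6.11 (SE 1.06) for Ltf. Ms4a3 was at -4.13 (SE 1.01), Ctsg at -4.75 (SE 0.85), Mpo at -5.35 (SE 0.88), Elane at -5.35 (SE 0.96), Ngp at -5.42 (SE 1.17), Fcnb at -5.44 (SE 1.25) and Camp at -6.003 (SE 1.23). The medians were -5.05 for the primary and -6.003 for the secondary genes, beside -0.026 over all genes. All 9 were called lower, against 2.40% of genes called lower and 1.60% higher, and again nothing is read from it. Of the 9, 1 was called when KN046 mouse 1 was left out, beside 21 of 14091 genes. Without KN046 mouse 3 it was 3 members, beside 60 of 14100 genes. Without any 1 of the control mice 4 to 6 members were called, beside 65 to 157 genes. Without KN046 mouse 2 all 9 were called, beside 2096 of 14061 genes. When the control pairs were merged into 2 samples, 0 of 9 were called, as were 0 genes of the whole table.

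With the combination the primary genes were at -2.72 (SE 0.72) for Mpo, -2.79 (SE 0.78) for Elane, -2.87 (SE 0.82) for Prtn3 and -2.51 (SE 0.70) for Ctsg. The secondary genes were at -1.46 (SE 0.93) for Ngp, -2.05 (SE 0.81) for Ltf and -1.09 (SE 0.88) for Camp, with Ms4a3 at -2.06 (SE 0.82) and Fcnb at -1.295 (SE 0.82). The fit called 4 members lower, the primary genes, where 9.74% of all genes were called lower and 1.37% higher. Nothing is read from that count, and no contrast of primary with other members is drawn from it. Combination mouse 4 moved these values. Without it all 9 were called, beside 1449 of 14089 genes. The values then ran from -4.17 for Ms4a3 to -5.70 for Elane, with Ngp at -5.13, Ltf at -4.90 and Camp at -4.51. Without combination mouse 2, 0 of the 9 were called, beside 1299 of 14110 genes. With the control pairs merged it was also 0 of the 9, beside 1192 of 14241 genes.

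Against the single agents, the combination fits were higher by 0.80 (SE 0.86) for Prtn3 to 4.91 (SE 1.22) for Camp over KN046, and by 2.17 (SE 0.94) for Prtn3 to 6.65 (SE 1.42) for Ngp over SB525334. Called higher than after KN046 were 5 members, Mpo, Ngp, Ltf, Camp and Fcnb, beside 9.89% of all genes. Called higher than after SB525334 were 4 members, Elane, Ngp, Ltf and Camp, beside 0.544% of all genes. Nothing is read from these counts either. Without mouse 4, 0 members were called over KN046 and 2 over SB525334, beside 2409 and 409 of 14089 genes. The fitted values were then -1.83 for Prtn3 to 1.497 for Camp over KN046, with 6 of 9 above 0, and -0.47 for Prtn3 to 3.98 for Ms4a3 over SB525334, with 8 of 9 above 0. The interaction term, the combination set against the sum of both single-agent differences, was positive for all 9 members, between 5.83 (SE 1.27) for Prtn3 and 12.06 (SE 1.83) for Ngp, where 1.73% of genes were called higher. Without combination mouse 4 it was 3.20 for Prtn3 to 9.11 for Ltf. After either agent alone the members had 0 to 2.96 CPM in any mouse. Each agent alone thus left them near 0, and the sum of both differences lies below what counts can show. A positive term was therefore nearly fixed in advance, and nothing is read from its sign or size.

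Primary and secondary granule genes were then set against each other within each mouse. The summed level of Mpo, Elane, Prtn3 and Ctsg was 38.5 ± 2.09 CPM in control mice, and that of Ngp, Ltf and Camp was 102 ± 5.01 CPM. After SB525334 the sums were 0.746 ± 0.536 and 0.464 ± 0.189 CPM, and after KN046 they were 1.77 ± 0.739 and 2.00 ± 1.28 CPM. The secondary sum thus was above the primary sum in each control mouse, and in the single-agent mice it was below it in 4 of 8. In combination mice 1 to 3 the primary sums were 0.822, 1.32 and 0.928 CPM and the secondary sums 4.52, 4.86 and 0.218 CPM. Mouse 4 had 19.0 CPM of primary and 127 CPM of secondary transcripts.

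**Figure D2:**
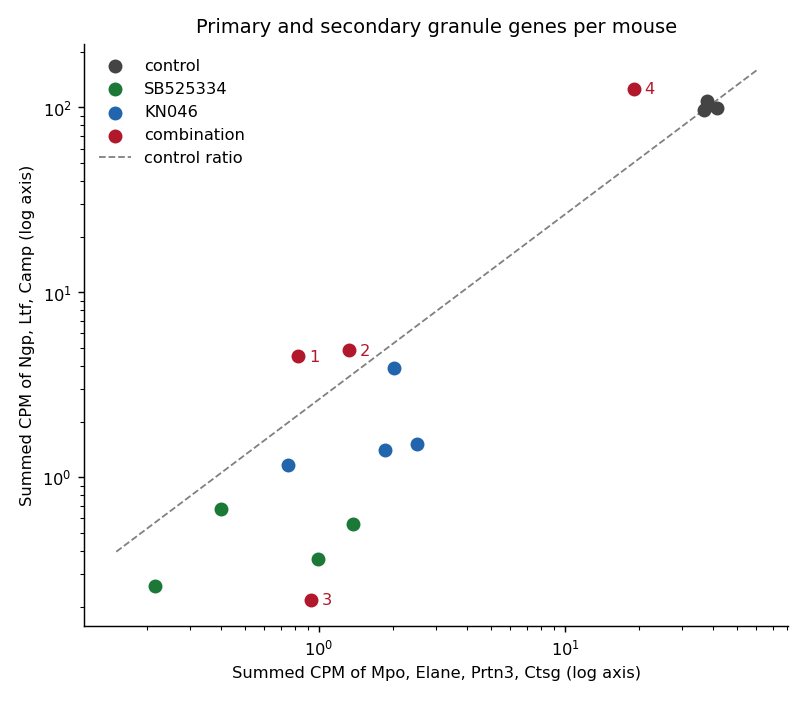
Summed CPM of the 4 primary granule genes (horizontal, log axis) against that of the 3 secondary granule genes (vertical, log axis), 1 point per mouse, after the combination mice numbered and the ratio of the control group as a dashed line. The control mice lie together near 38 and 102 CPM, the single-agent mice lie below the line, and combination mice 1, 2 and 4 lie above it.

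The ratio of primary to secondary counts was 0.371, 0.347, 0.382 and 0.417 in control mice 1 to 4, a narrow range. It was 2.75, 0.588, 2.46 and 0.833 after SB525334, and 0.636, 1.31, 0.514 and 1.66 after KN046. All 8 single-agent mice were thus above all 4 control mice, though 5 to 48 primary and 6 to 70 secondary counts stood behind each ratio. The 95% counting interval reached into or below the control range in SB525334 mice 2 and 4 and in KN046 mice 1 and 3. Combination mice 1, 2 and 4 were below all control mice, at 0.182 (0.0996 to 0.312), 0.273 (0.166 to 0.432, which reaches into the control range) and 0.150 (0.135 to 0.167), and mouse 3 was at 4.25 (1.39 to 17.4), from 17 primary and 4 secondary counts. The intervals cover counting error only. On the log2 scale, the mean of log2(CPM + 0.5) over the primary genes minus that over the secondary genes was -1.64 ± 0.058 in control, 0.0028 ± 0.241 after SB525334, -0.281 ± 0.382 after KN046 and -1.305 ± 1.303 after the combination. On this scale, lists without counts would show no difference, and the SB525334 mice were close to that limit. The combination differed from control by 0.336, less than the spread among its own mice, and by -0.206 without combination mouse 3.

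**Figure D3:**
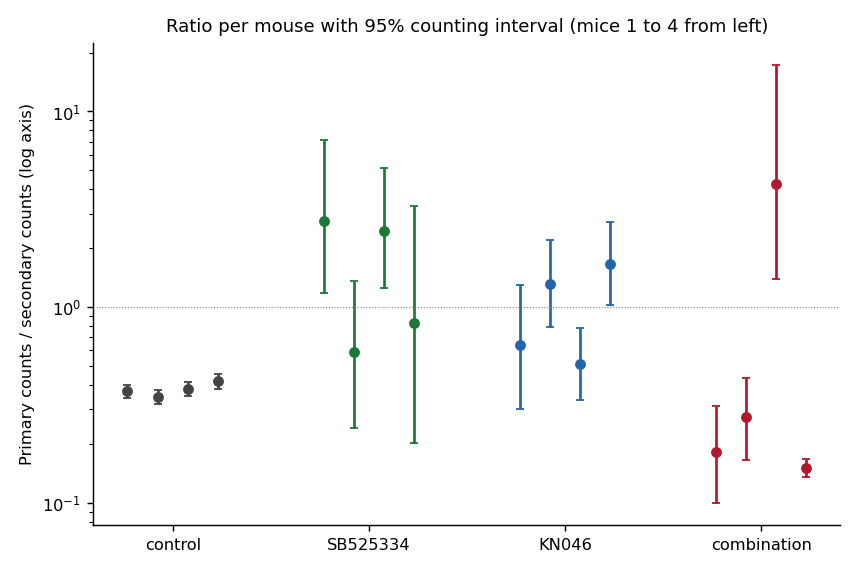
Ratio of primary to secondary granule gene counts in each mouse (log axis) with 95% counting intervals, mice 1 to 4 of each group from left to right. The control mice lie between 0.347 and 0.417, the single-agent mice between 0.514 and 2.75, and the combination mice at 0.182, 0.273, 4.25 and 0.150.

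Per length of transcript, the order of the members in control mice was Ngp, at 42.0 ± 3.14 CPM per kb of exon, then Camp at 13.8 ± 1.94. Ltf (9.04 ± 0.601), Elane (8.81 ± 0.603) and Prtn3 (8.62 ± 0.952) followed, and these 3 changed places from mouse to mouse and did not differ beyond their spread. Ctsg (3.90 ± 0.381) and Mpo (3.16 ± 0.439) came next and also overlapped between mice, and Fcnb (0.972 ± 0.164) and Ms4a3 (0.906 ± 0.341) were last and did not differ beyond their spread. In combination mouse 4 the order was Ngp (57.1 CPM per kb), Camp (23.97), Ltf (7.73), Elane (4.49), Prtn3 (4.05), Ctsg (2.19), Mpo (1.55), Fcnb (1.42) and Ms4a3 (0.695), the order of the group means in control. Levels after either single agent were too near 0 to be ordered.

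Among the 11 treated mice other than combination mouse 4, r was higher between secondary genes than between primary genes. Pearson's r of log2(CPM + 0.5) between Ngp and Ltf was 0.836, and it was 0.640 between Ltf and Camp and 0.591 between Ngp and Camp. Between pairs of primary genes it ran from -0.120 to 0.335. Across the lists it ran from 0.0040 to 0.608 between primary and secondary genes. Between Ms4a3 or Fcnb and the secondary genes it ran from 0.285 to 0.811. Elane had 0 to 7 and Ctsg 0 to 5 counts in these mice, and the part of counting error in their r was not tested. These are descriptions over 11 mice that share libraries, 3 treatments and counts of 0 to 53, and no weight is put on the weak values.

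Of other genes linked to primary granules, Prss57, Bpi, Serpinb1a and Cst7, 2 passed the filter on low counts, Serpinb1a and Cst7. Neither of these encodes a granule protease, so the calls and medians below do not describe such genes. Called lower by edgeR were 0 after SB525334, 1 after KN046 and 0 after the combination, beside 9.22%, 2.40% and 9.74% of all genes. At an unadjusted p under 0.05 they were 1, 2 and 0, and DESeq2 called 1, 2 and 1 of the list in either direction. The medians were -0.48, -1.15 and 0.13. Serpinb1a, an inhibitor of the granule proteases, was at 15.4 ± 2.05 CPM in control, 15.6 ± 3.14 after SB525334, 11.1 ± 1.83 after KN046 and 21.1 ± 2.13 after the combination. None of its 3 differences with control passed, with adjusted p of 0.97, 0.10 and 0.087 (edgeR). Cst7, which encodes cystatin F and is also made by lymphocytes, was at 2.92 ± 0.463 CPM in control and 0.817 ± 0.361 after KN046 (log2 difference -1.83, SE 0.38, edgeR adjusted p = 0.024), but at 2.54 ± 0.922 after the combination (adjusted p = 0.79). With the control pairs merged its adjusted p was 0.20. Prss57, a protease of primary granules left out by the filter, was at 0.586 ± 0.157 CPM in control and at 0.0243 to 0.127 CPM on average in the treated groups. Bpi, also left out by the filter, was not lower after SB525334, with 0, 0, 0 and 5 counts in control and 0, 6, 5 and 3 after SB525334. It had 1, 1, 0 and 4 counts after KN046 and 1, 0, 2 and 0 after the combination.

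Of 10 other genes of secondary and later granules, 8 were tested. Called lower were 5 after SB525334, 3 after KN046 and 3 after the combination, beside 9.22%, 2.40% and 9.74% of all genes. Their median log2 differences were -1.95, -1.16 and -1.61. Cd177, a surface protein stored in secondary granules, was closest to the members. Its counts were 155, 198, 115 and 145 in control, 0, 9, 8 and 9 after SB525334, 4, 7, 15 and 10 after KN046, and 3, 6, 2 and 93 after the combination. It fell by 4.72 (SE 0.91, edgeR adjusted p = 0.0013) after SB525334, by 3.94 (SE 0.87, adjusted p = 0.026) after KN046 and by 2.54 (SE 0.78, adjusted p = 0.044) after the combination. With the control pairs merged the last 2 calls were lost, at adjusted p = 0.20 and 0.16, and without combination mouse 4 the combination value was -5.18 (adjusted p = 1.2e-05). Mmp8, the neutrophil collagenase, fell by 1.98 (SE 0.42, adjusted p = 0.0031) and 1.66 (SE 0.42, adjusted p = 0.039) with the single agents. Its difference after the combination, -1.23 (SE 0.41), had an adjusted p of 0.066, and -1.82 without mouse 4 (adjusted p = 0.0028). The KN046 value had an adjusted p of 0.23 with the control pairs merged. Chil3, Cybb and Itgam were not called in any comparison with control. After SB525334, Itgam was at 6.28 to 14.2 CPM against 6.77 to 18.4 in control, and Cybb at 45.7 to 87.3 against 64.6 to 112. Chil3 reached 44.8 CPM in SB525334 mouse 4, above the control range of 30.7 to 34.6, and was at 2.31 to 10.8 CPM in mice 1 to 3.

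Lcn2 and Hp, which neutrophils store in granules and hepatocytes secrete in inflammation, went another way. Lcn2 was at 148 ± 53.9 CPM in control, 20.7 ± 9.20 after SB525334, 140 ± 97.0 after KN046 and 5.88 ± 9.86 after the combination. It fell after SB525334 (log2 difference -2.84, SE 0.74, edgeR adjusted p = 0.016) and after the combination (-4.62, SE 0.82, adjusted p = 0.00047), and was at -0.082 (SE 0.68) after KN046. The SB525334 call was lost with the control pairs merged (adjusted p = 0.063), and without combination mouse 4 the combination value was -7.27. Hp fell by 3.23 (SE 0.43, adjusted p = 2.9e-05) after SB525334 and by 8.31 (SE 0.55, adjusted p = 3.8e-09) after the combination, and was at -0.67 (SE 0.40, adjusted p = 0.32) after KN046. The 12 hepatocyte genes moved with them, and had a list median of -0.11 after KN046. All 12 were called lower after SB525334 and after the combination, beside 9.22% and 9.74% of all genes. Their part in the Lcn2 and Hp values was not tested. After KN046 the hepatocyte genes summed to 8840, 16780, 18201 and 13513 CPM in mice 1 to 4. Mice 1 and 4 were thus below and mice 2 and 3 above the control range.

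Genes that mature neutrophils keep on were called lower after SB525334 in 7 of 12 cases, beside 9.22% of all genes. Their list median was -2.44. S100a8, which with S100a9 forms calprotectin, had 542, 491, 598 and 652 counts in control, 2, 0, 60 and 9 after SB525334, 35, 33, 65 and 27 after KN046, and 26, 72, 6 and 1002 after the combination. It fell by 5.18 (SE 1.19, edgeR adjusted p = 0.0062) after SB525334, and its other differences were -3.71 (SE 1.08, adjusted p = 0.062) after KN046 and -1.07 (SE 0.95, adjusted p = 0.56) after the combination. Retnlg fell by 5.19 (SE 0.88, adjusted p = 0.00036) and Ly6g, the marker used to sort mouse neutrophils, had 12 to 21 counts in each control mouse and 0 in all 4 SB525334 mice. Csf3r, the G-CSF receptor, fell by 1.30 (SE 0.30, adjusted p = 0.0059) after SB525334 and by 1.381 (SE 0.30, adjusted p = 0.0031) after the combination. Its level differed between the control pairs, at 22.2 to 23.1 CPM in mice 1 and 2 and 10.8 to 13.0 CPM in mice 3 and 4. Mmp9, the most abundant gene of the list per length and one that macrophages also make, was at 56.7 ± 3.52 CPM in control and did not pass in any comparison with control (adjusted p of 0.62, 0.72 and 0.45).

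With KN046, edgeR called 0 of the 12 mature neutrophil genes, beside 2.40% of all genes called lower. At an unadjusted p under 0.05, 6 were lower by edgeR, and DESeq2 called 4. The list median was -1.12, beside -0.026 over all genes. Whether the members and the mature genes differ in their response to KN046 was not tested. With the combination 2 of 12 were called lower, beside 9.74% of all genes, and nothing is read from that count. S100a8 in combination mouse 4 was at 47.2 CPM, above the control range of 23.2 to 34.1. Ly6g at 1.37 and S100a9 at 81.3 CPM were also above their control ranges in that mouse. Without mouse 4, S100a8 was lower after the combination by 3.88 (edgeR adjusted p = 0.0045) and Ly6g by 2.50 (adjusted p = 0.042).

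Among transcription factors of granulocyte development the calls were mixed. Of 7 factors, 3 were called lower after SB525334, 4 after KN046 and 1 after the combination, with medians of -0.57, -1.003 and -0.68. Of all genes 9.22%, 2.40% and 9.74% were called lower, and nothing is read from the count after the combination. Cebpe, which encodes C/EBPε, had 38, 38, 38 and 32 counts in control, 0, 7, 9 and 2 after SB525334, 2, 6, 5 and 7 after KN046, and 6, 4, 1 and 28 after the combination. It fell by 3.17 (SE 0.72, edgeR adjusted p = 0.0054) and 2.73 (SE 0.71, adjusted p = 0.043) with the single agents, and was at -1.84 (SE 0.65, adjusted p = 0.088) after the combination, or -3.12 without mouse 4 (adjusted p = 0.0037). Gfi1, a repressor required for neutrophil maturation, fell by 2.02 (SE 0.43, adjusted p = 0.0035) and 2.07 (SE 0.45, adjusted p = 0.024), and Myb, the factor of early progenitors, by 2.48 (SE 0.64, adjusted p = 0.015) and 3.70 (SE 0.75, adjusted p = 0.023). With the control pairs merged none of the 3 passed after KN046, at adjusted p of 0.23, 0.20 and 0.17, and Myb did not pass after SB525334 (adjusted p = 0.055). Cebpa, the early factor C/EBPα and also a hepatocyte factor, was at 42.0 ± 2.44 CPM in control and fell by 0.90 (SE 0.18, adjusted p = 0.0018) after the combination.

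Of the cytokines that mobilize neutrophils, 3 of 6 were tested, with medians of -0.22, 0.047 and -0.46. SB525334 mouse 3 had the highest sum of the list, 33.7 CPM against 16.03 to 22.1 CPM in control. Cxcl3, another chemoattractant, was at 2.03 (SE 0.996, adjusted p = 0.29) after SB525334, with 9, 7, 247 and 2 counts in the 4 mice. Cxcl1, a neutrophil chemoattractant, fell by 1.86 (SE 0.48, edgeR adjusted p = 0.016) after SB525334, from 12.1 ± 1.81 to 3.32 ± 2.37 CPM. It was at 11.0 ± 7.82 CPM after KN046 and 4.97 ± 1.27 after the combination, neither of which passed (adjusted p of 0.89 and 0.10). With the control pairs merged the SB525334 value had an adjusted p of 0.075. Csf3, which encodes G-CSF, was at 0.158 ± 0.0658 CPM in control and at 0.0207 to 0.213 CPM on average in the other groups.

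**Figure D4:**
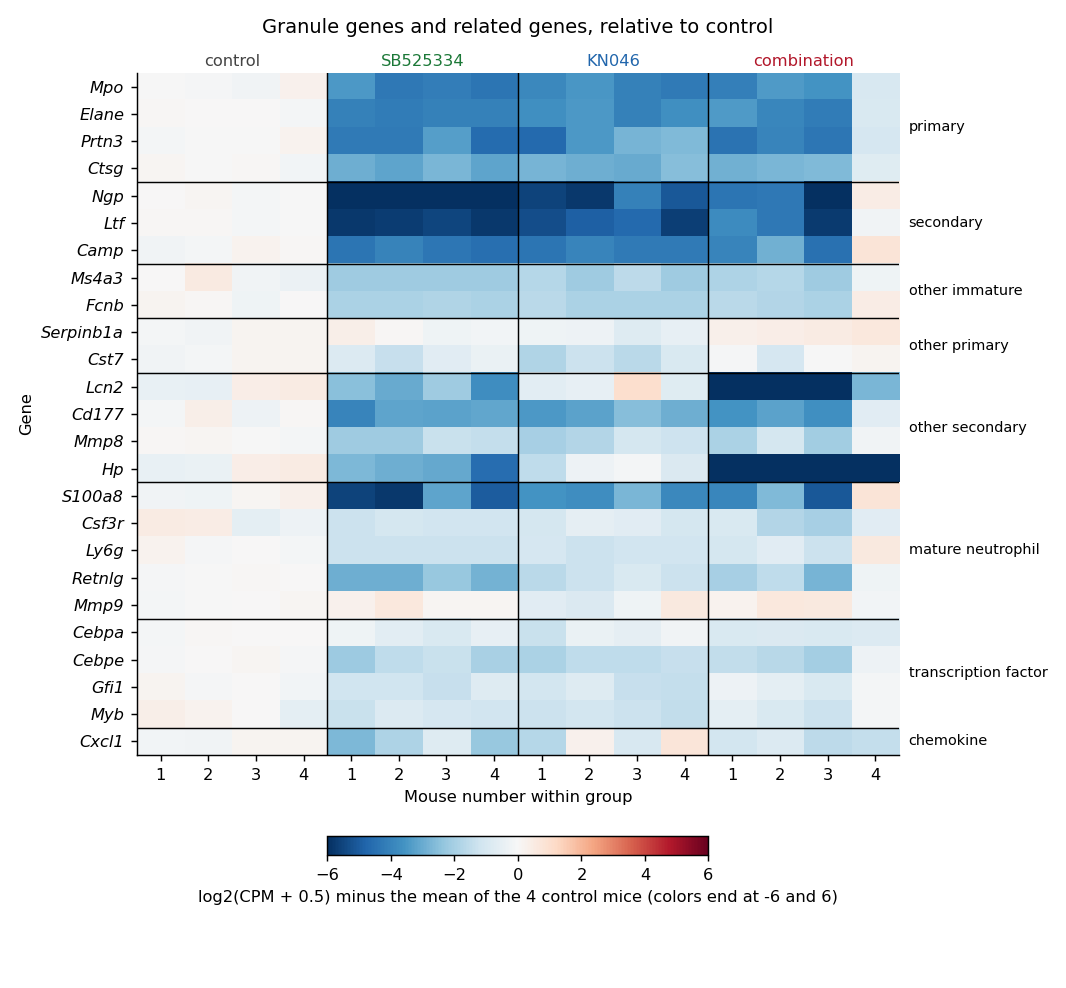
Level of each gene (rows) in each mouse (columns, 4 per group) as log2(CPM + 0.5) minus the mean of the 4 control mice, blue for lower and red for higher, with colors ending at -6 and 6. The members, Cd177 and S100a8 are blue in the single-agent mice and in combination mice 1 to 3, while Serpinb1a and Mmp9 stay near white and Hp and Lcn2 are near white after KN046.

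By likeness over the 16 mice, the nearest genes to the mean of the members were Cd177 (Pearson's r = 0.976), Cebpe (0.967), Ifitm6 (0.962), Ly6g (0.949), Itgb2l (0.943), S100a8 (0.942), Mmp8 (0.930), S100a9 (0.925), Prss34 (0.925) and Pglyrp1 (0.917), out of 13959 genes. These r describe 16 mice that share 4 groups, and mostly repeat the gap between 5 high and 11 low mice. With group means removed the highest were Ly6g (0.952), Ifitm6 (0.934), Cd177 (0.925), Plac8 (0.905), Retnlg (0.904), Lcn2 (0.895), S100a8 (0.884), Cebpe (0.867), Cxcr5 (0.866) and Nkx2-5 (0.863), values that rest mainly on combination mouse 4. Prss34, a basophil protease, stayed low in that mouse. It was at 0.947 ± 0.199 CPM in control and 0.189 CPM in combination mouse 4, and was not counted in the other 3 combination mice and the 4 KN046 mice. Plac8 was at 25.4 ± 2.55 CPM in control, and at 23.4 CPM in combination mouse 4 against 4.26 to 7.96 CPM in the other 3.

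Other cell types were measured beside the members. In combination mouse 4, the 6 B cell genes summed to 57.5 CPM against 2.18 to 19.6 CPM in the other combination mice and 1.67 to 4.59 CPM in control, and all 6 had counts. Its 12 erythroid genes summed to 271 CPM against 15.9 to 216 CPM in mice 1 to 3, 85.5 to 162 CPM in control, 9.22 to 53.6 CPM after SB525334 and 66.0 to 325 CPM after KN046. The highest of all mice was KN046 mouse 3, where the members summed to 6.15 CPM. In combination mouse 4, the 8 basophil and mast cell genes summed to 2.78 CPM, with 7 of 8 counted. The sum was 0.218 to 0.552 CPM in combination mice 1 to 3 and 1.07 to 2.19 in control. It was 0 to 0.136 after SB525334 and 0 to 0.438 after KN046. The 9 macrophage and monocyte genes summed to 1627 to 1709 CPM in control, 1473 to 2300 after SB525334, 749 to 1591 after KN046 and 1559 to 2267 after the combination. The 6 T and NK cell genes summed to 17.98 to 25.7 CPM in control, 11.1 to 20.1 after SB525334, 4.86 to 14.1 after KN046 and 14.3 to 34.03 after the combination. The part of these cells in the members' values was not tested.

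The 7 eosinophil genes, which mark another granulocyte, differed between the control pairs. They summed to 11.46, 12.2, 3.20 and 3.87 CPM in control mice 1 to 4, 1.29 to 6.76 after SB525334, 1.92 to 7.73 after KN046 and 0.328 to 4.10 after the combination. The members summed to 136 to 150 CPM in the 4 control mice. Ear1 and Ear6 had no count in either single-agent group.

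**Figure D5:**
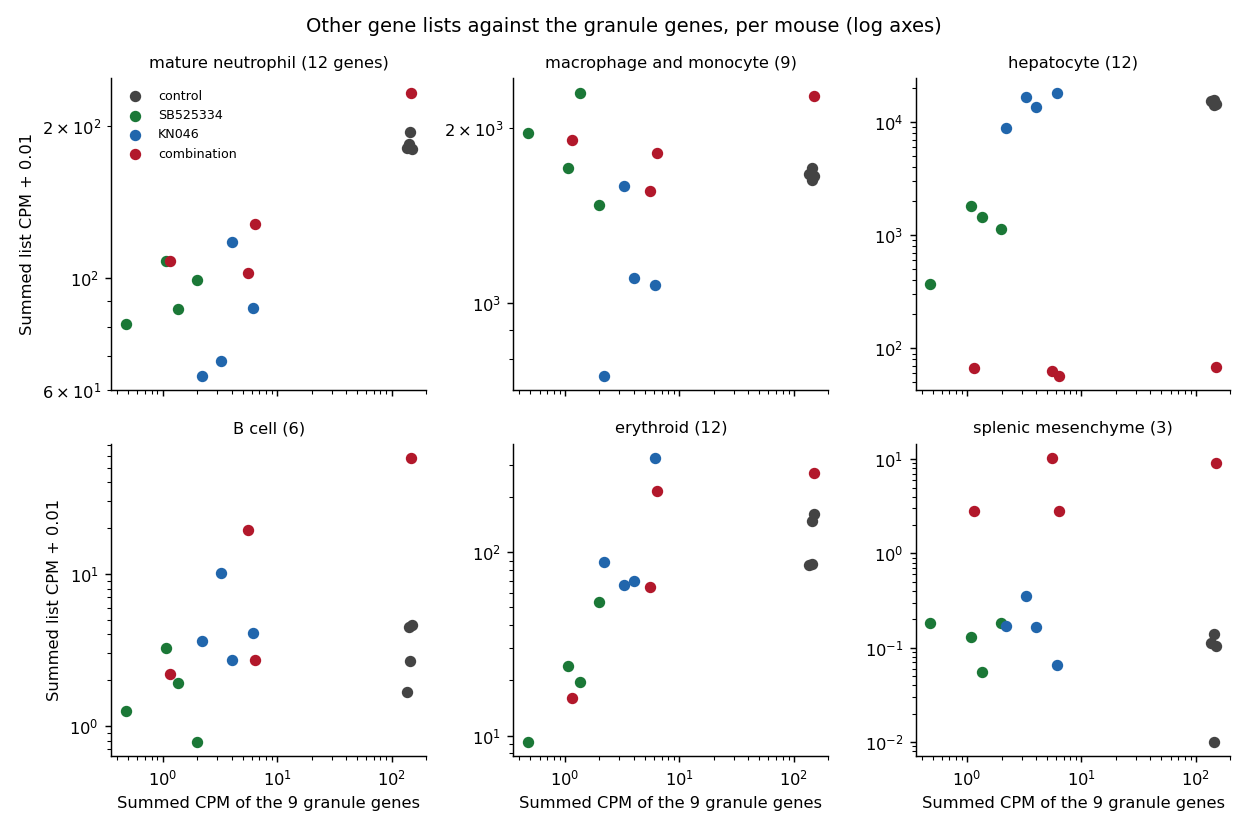
Summed CPM of 6 other gene lists (vertical, with 0.01 added) against the summed CPM of the 9 granule genes (horizontal), 1 point per mouse, all axes logarithmic. The KN046 mice have 8840 to 18201 CPM of hepatocyte genes, a range that spans the control mice, at 2.19 to 6.15 CPM of granule genes, and combination mouse 4 has control-like granule gene levels with hepatocyte RNA as low as in the other combination mice.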

How the data were processed

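Bulk mRNA of tumor tissue from 16 mice was sequenced. The processing notes of the submitters name Cutadapt 2.7 (read trimming), HISAT2 2.2.1 (alignment, build GRCm39), HTSeq 2.0.4 (counting per gene) and DESeq2 1.38.3. Strand and multi-mapping settings are not given in the sources used here. The authors deposited raw counts for 21959 genes, of which 21770 are in GENCODE M39, and normalized values, a score that is not used here. Counts were fitted by the quasi-likelihood test of edgeR 4.0.16 in R 4.3.3 over all 4 groups, after its low-count filter (minimum 10) and TMM factors, and p-values were adjusted over 13968 genes (Benjamini-Hochberg, threshold 0.05). All 9 members passed that filter, every one of them in each control mouse. A gene that passes through the control group alone had to be lower elsewhere, so passing supports nothing. Depth was 18368994 to 23877131 counts per mouse, and counting intervals (95%, exact binomial on pooled counts) and the limit of 3 counts cover counting error only. The members and all gene lists were chosen with earlier results of these data known. The text names all 9 members, of each list up to 4 genes called against control and the most abundant per length, and the 10 genes most like the members by each of 2 measures. Genes named outside this rule (Prss57, Bpi, Chil3, Cybb, Itgam, Csf3, Cxcl3, Ear1, Ear6, Tlx1 and Coch) were chosen after their values were seen. The labels number the samples within each group and say nothing on litter or batch. Each sample was taken as a separate animal, and p-values rest on the spread between samples. If the close control pairs are not independent, that spread is too small and the p-values too low. Alternatives were DESeq2 1.42.0, other scalings and filters, the groups compared alone, a replicate block, the thresholds of the study (unadjusted p under 0.05 with a fold over 2), merged control pairs and each mouse left out. The steps were tested on simulated data. Sequences were read from RefSeq promoters.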

Additional observations from a re-analysis of the deposited data

Results flagged for a closer look

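In 12 of 40 groups of 4 mice examined (9 genes and the primary-minus-secondary difference in 4 groups), 1 mouse lay farther from the others than Dixon's 95% critical value allows, where chance flags about 1 in 20 groups, or 2 here. Combination mouse 4 made 9 of the 12, as the highest, in every member, with a gap over range of 0.923 for Mpo, 0.919 for Elane, 0.957 for Prtn3, 0.946 for Ctsg, 0.969 for Ngp, 0.935 for Ltf, 0.944 for Camp, 0.875 for Ms4a3 and 0.949 for Fcnb. The 9 genes share that library and are not independent of each other. They were also chosen with earlier results of these counts in view, and Dixon's value assumes normal data, which CPM near 0 counts are not. Nothing is therefore read from 12 flags against the 2 given for chance. The other 3 rest on 0 to 2 counts in the mice concerned: SB525334 mouse 2 as the lowest in Elane (0.952), SB525334 mouse 3 as the highest in Fcnb (1) and KN046 mouse 1 as the highest in Fcnb (1).

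The difference with SB525334 differed with and without KN046 for 11 of the 16 related genes named, by edgeR's interaction term on the log2 scale at an adjusted p under 0.05. The terms were 0.91 for Serpinb1a, 2.61 for Cst7, 6.13 for Cd177, 2.41 for Mmp8, -4.41 for Hp, 7.83 for S100a8, 9.91 for Ly6g, 5.08 for Retnlg, 4.06 for Cebpe, 3.41 for Gfi1 and 4.88 for Myb. Over all 13968 genes, 242 had a positive and 356 a negative term that was called. Most of the 16 were named because they were called against control, and the same control and single-agent mice enter this term, so the count is not independent of how they were named. For genes such as Ly6g and Cd177, few counts were left after either agent alone. The sum of both differences then lies near or below what counts can show, so a positive term was nearly fixed in advance. Without combination mouse 4, 6 of the 11 were still called, namely Cst7, Hp, S100a8, Ly6g, Gfi1 and Myb.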

How the results depend on the processing

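After SB525334, 9 of 9 members were called in every setting that tested all 9 except DESeq2, which called 3 (with KN046 3, combination 2, combination over KN046 2, combination over SB525334 3, interaction 3 members). DESeq2 gave no adjusted p for the other 6 members, so these are not lost calls. Over all 17902 genes DESeq2 called 1600 after SB525334, 1250 after KN046 and 1880 after the combination. It called 3990 for the combination over KN046, 678 over SB525334 and 957 for the interaction. Leaving out 1 mouse gave 9 to 9 members called after SB525334, 1 to 9 after KN046, 0 to 9 after the combination, 0 to 7 for the combination over KN046, 2 to 7 over SB525334, and 8 to 9 for the interaction. The other granule genes gave 5 to 6, 0 to 5, 2 to 6, 4 to 5, 1 to 2 and 4 to 7 called in the same order. In that order, 1146 to 1308, 21 to 2096 and 1299 to 2184 of all genes were called. For the last 3 comparisons it was 2311 to 4315, 409 to 522 and 377 to 944. With the control pairs merged, 0 members were called after KN046 and 0 after the combination, and of the other granule genes 3 after SB525334, 0 after KN046 and 3 for the interaction. Of all 14241 genes tested, 0 were called after KN046 and 1192 after the combination. That setting has 2 control samples. With only the groups compared, 1 member was called after the combination, 0 of 3 tested over KN046 and 0 of 0 tested over SB525334. These fits called 1524 of 13580, 1855 of 13421 and 294 of 13114 genes. The thresholds of the study called 9 members over SB525334, and 5 other granule genes after the combination and 4 over SB525334. Of all 13968 genes they called 822 over SB525334 and 1428 after the combination. The replicate numbers do not mark shared animals, and deviations of same-numbered mice had correlations of -0.444 to 0.486. With the replicate block, 2 members were called over KN046 and 2 over SB525334, and 5 other granule genes after the combination. That fit called 3644 of 13968 genes over KN046, 474 over SB525334 and 1532 after the combination. With Ms4a3 and Fcnb counted as primary genes, primary minus secondary was 2.25 after SB525334 and 1.89 after KN046 against control. Leaving out 1 mouse moved primary minus secondary to 1.57 to 1.74 after SB525334, 1.24 to 1.53 after KN046, -0.21 to 0.86 after the combination, -1.57 to -0.50 over KN046 and -1.85 to -0.79 over SB525334. The cause of these changes was not tested. Where 0 to 3 counts stand behind a group, depth limits how well the size of a fold is known.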
